A study of Mus musculus with 4 samples.

Results

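The platelet and megakaryocyte genes described here are 10 named genes: Pf4, Ppbp, Itga2b, Itgb3, Gp9, Gp1bb, Gp5, Gp6, Vwf and Treml1. They were taken by name, as every probe set annotated to exactly 1 of these genes, which gave 12 of 45037 probe sets and 10 of 18193 genes. Itgb3 and Gp1bb had more than 1 probe set, and the other 8 genes had 1 each. RNA came from lineage-negative, cKit-positive, Sca1-positive (LSK) cells, the fraction of mouse foetal liver that holds blood stem cells and multipotent progenitors, and was hybridized to Affymetrix expression arrays. All 4 samples are labelled as E13.5 female embryos of the genotype Hes1 GFP/WT, so that both groups carry a GFP reporter on 1 allele of Hes1. They differ in the label: 3 arrays are HES1-GFP negative (replicates 1, 2 and 3) and 1 array is HES1-GFP positive. The labels do not say whether embryos were pooled or whether negative replicates are separate litters or sorts. All p-values therefore measure only the spread between these samples, which may be technical.

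Megakaryocytes are the bone marrow and foetal liver cells that shed platelets. Platelets bind injured vessel wall through von Willebrand factor and the receptor complex GPIb-IX-V, bind collagen through GPVI, aggregate through the integrin alphaIIb-beta3, and release stored chemokines from their alpha granules. Some of these genes are already transcribed in stem cells and early progenitors, where Itga2b also marks the first blood progenitors of the embryo. Vwf is in addition a gene of endothelial cells. GATA and ETS family transcription factors, among them Gata1 and Fli1, drive the megakaryocyte programme.

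The deposited values are probe set intensities made with RMA, and every level below is the log2 of such an intensity. Median intensities of the 4 arrays lay between 74.8 and 76.1 on the linear scale. Hes1, the reporter gene, had log2 levels of 8.78, 9.07 and 6.70 in negative replicates 1, 2 and 3 and 6.57 in the array labelled positive, which was thus the lowest, against its label. Every direction below is therefore that of the array labelled positive against those labelled negative. The group labelled positive has 1 array and no spread of its own, and an exact permutation of 4 labels cannot give a one-sided p below 0.25. Kit, a marker of the sort, had log2 levels of 9.90, 9.72 and 9.68 in the negative arrays and 10.13 in the positive one, while Ly6a (Sca1) had no probe set annotated to it alone. Among the 12 measured LSK and stem cell markers, 4 lay above the negative range in the array labelled positive and 1 below it. Over all genes these shares were 23.6% and 23.0%. Summed marker intensities of macrophages, B and T cells, and mast cells stood apart by array within the negative group. The summed intensity of 14 macrophage markers had log2 values of 15.32 and 15.26 in negative replicates 1 and 2, but 13.17 in replicate 3 and 13.09 in the array labelled positive.

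None of the 10 genes passed limma's moderated test between the labelled groups, with an adjusted p of 1.00 for each (Benjamini-Hochberg over 18193 genes), where 0% of all genes passed. At an unadjusted limma p under 0.05 there was 1 member, Itgb3, and 734 genes in all. The largest differences were in Vwf, which was 1.85 log2 units lower in the array labelled positive, Itgb3, which was 0.99 lower, and Gp5, which was 0.81 higher. Pf4 and Ppbp, the platelet chemokines, had differences of -0.02 and -0.01. In 5 of the 10 genes the level in the array labelled positive was beyond the negative values on either side, a share near the 46.6% of all genes. In 0 of them it was beyond by 1 log2 unit or more, against 1.41% of all genes. It was above that range in Gp9 and Gp1bb (23.6% of all genes) and below it in Itgb3, Gp6 and Vwf (23.0% of all genes). The median difference of the 10 genes was -0.02 log2 units, against -0.001 over all genes, with 4 genes on the higher side and 6 on the lower. That median depended on which negative arrays were used, with 0.17 without negative replicate 1 and -0.22 without replicate 3.

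**Figure D1:**
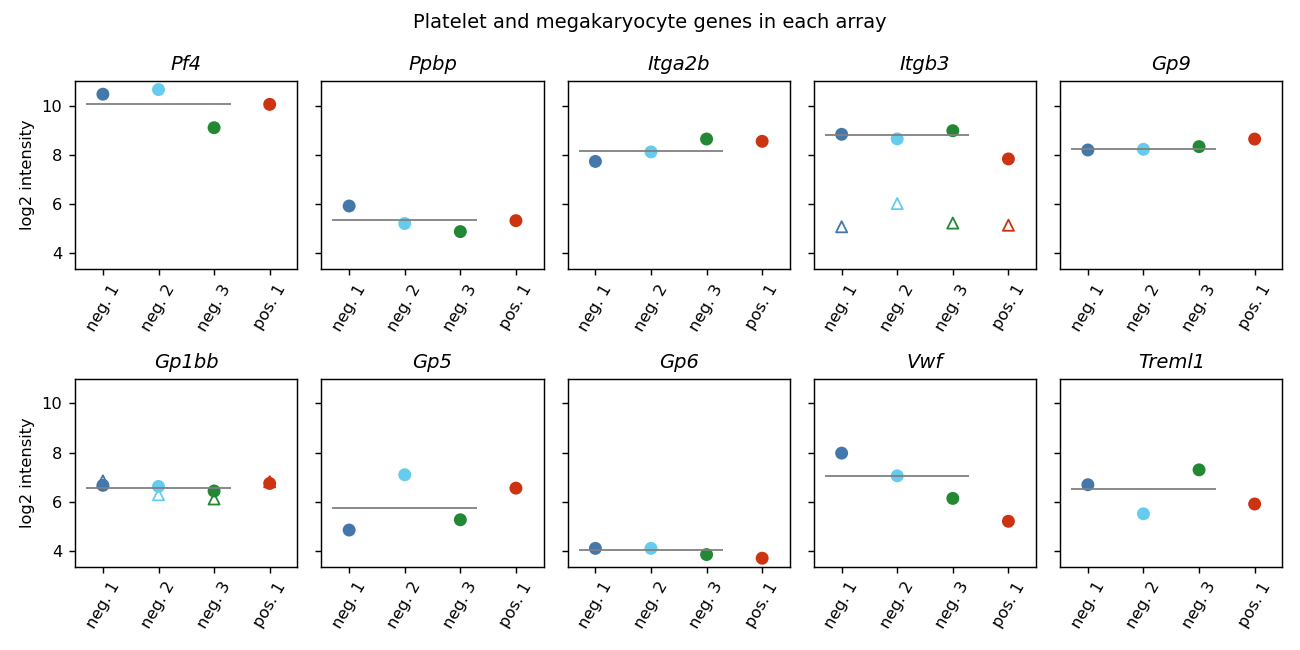
Log2 intensity (vertical axis) of the 10 genes in negative replicates 1 to 3 and in the array labelled positive; filled circles are the probe set with the highest mean, open triangles the second probe set of Itgb3 and Gp1bb, and the grey line is the mean of the 3 negative arrays. Vwf is lowest in the positive array at 5.21, Pf4 is lowest in negative replicate 3 at 9.10, and Gp9 stays between 8.20 and 8.64.

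The 2 platelet chemokines are stored in alpha granules. They are direct neighbours on chromosome 5 in the RefSeq gene table of GRCm38.p6, with no protein-coding gene between them. Pf4 encodes platelet factor 4 (CXCL4), a heparin-binding chemokine that restrains megakaryocyte growth. Its log2 level was 10.46, 10.65 and 9.10 in negative replicates 1, 2 and 3 and 10.05 in the array labelled positive. Negative replicate 3 was the low array and the positive array lay between it and the other negative arrays. The difference was -0.02 with an SE of 0.72, around a negative mean of 10.07 ± 0.85 (SD, n = 3), and its sign turned when replicate 1 (0.17) or replicate 2 (0.27) was left out. Ppbp, the precursor of the neutrophil attractant NAP-2 (CXCL7), had log2 levels of 5.92, 5.21 and 4.88 in the negative arrays and 5.33 in the positive one. Here too replicate 3 was lowest and the positive array lay within the range. The difference was -0.01 with an SE of 0.48, around a negative mean of 5.34 ± 0.53 (SD, n = 3). Ppbp was a dim probe set, with a mean level at or above that of only 36.6% of probe sets, and no detection calls were used here.

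Negative replicate 3 held the lowest value of Pf4 and Ppbp, as it did of Gp1bb and of 19.5% of all genes. The sequences in front of Pf4 and Ppbp are shown because these genes adjoin and both had their lowest value in that array. Each is the 250 bases before the gene's start in RefSeq (GRCm38.p6), 5′ to 3′ on the gene's strand. Capitals mark the letters of a GATA motif (AGATAA or AGATAG, and likewise TGATAA or TGATAG) or of an ETS motif (AGGAAG or CGGAAG), each searched on both strands, where motifs may overlap. Gp9, the member whose negative arrays lay closest together, and Gp5, whose negative arrays lay farthest apart, are shown for contrast.
Pf4, GRCm38.p6, chr5:90772185-90772434, plus strand: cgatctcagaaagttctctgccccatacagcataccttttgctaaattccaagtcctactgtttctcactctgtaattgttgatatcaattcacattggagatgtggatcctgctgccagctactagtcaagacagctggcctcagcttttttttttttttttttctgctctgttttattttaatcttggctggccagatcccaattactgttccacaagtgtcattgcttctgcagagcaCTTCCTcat
Ppbp, GRCm38.p6, chr5:90768268-90768517, plus strand: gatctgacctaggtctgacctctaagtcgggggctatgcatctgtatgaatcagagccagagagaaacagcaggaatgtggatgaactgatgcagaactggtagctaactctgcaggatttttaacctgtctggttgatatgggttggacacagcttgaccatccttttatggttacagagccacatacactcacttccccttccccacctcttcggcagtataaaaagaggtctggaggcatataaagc
Gp9, GRCm38.p6, chr6:87777820-87778069, plus strand: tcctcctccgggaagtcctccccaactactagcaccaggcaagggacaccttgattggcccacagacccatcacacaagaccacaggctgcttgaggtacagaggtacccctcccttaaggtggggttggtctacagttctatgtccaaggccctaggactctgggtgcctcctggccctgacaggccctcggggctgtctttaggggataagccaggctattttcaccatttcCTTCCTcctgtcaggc
Gp5, GRCm38.p6, chr16:30310782-30311031, minus strand: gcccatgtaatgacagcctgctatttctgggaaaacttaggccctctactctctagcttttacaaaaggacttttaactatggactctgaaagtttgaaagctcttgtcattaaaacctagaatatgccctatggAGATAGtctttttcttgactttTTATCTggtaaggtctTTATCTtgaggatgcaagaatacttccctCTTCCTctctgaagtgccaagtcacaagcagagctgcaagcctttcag
Of the 10 genes, 8 had a sequence in the table. The Pf4 window held 1 ETS motif and no GATA motif, and the Ppbp window held neither, on these letters. The Gp9 window held 1 ETS motif. The Gp5 window held 3 GATA motifs and 1 ETS motif. A GATA motif was found in the windows of 3 of the 8 genes (Gp1bb, Gp5 and Gp6) and in 26.5% of all 32851 windows of the table. An ETS motif was found in 5 of the 8 (Gp1bb, Gp5, Gp9, Itga2b and Pf4) and in 39.2% of all windows. These are matches of letters in a short window and not measured binding.

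The integrin alphaIIb-beta3 is the fibrinogen receptor by which platelets aggregate. Itga2b, its alpha chain (CD41), had log2 levels of 7.73, 8.12 and 8.64 in negative replicates 1, 2 and 3 and 8.55 in the array labelled positive. The positive array lay between replicates 2 and 3, so the groups overlapped. Its difference of 0.38 with an SE of 0.42 was smaller than the negative SD of 0.46 (n = 3), and was 0.17 without negative replicate 1 and 0.62 without replicate 3. Itgb3, the beta chain, also pairs with the alpha V chain in other cells. In its brighter probe set the levels were 8.83, 8.65 and 8.98 in the negative arrays and 7.83 in the positive one, so that the positive array stood below 3 close values. The difference was -0.99 with an SE of 0.23, around a negative mean of 8.82 ± 0.17 (SD, n = 3). Its unadjusted limma p was 0.0135, the only one of the 10 genes under 0.05, where 4.03% of all genes fell under that value, and its adjusted p was 1.00. In the dimmer Itgb3 probe set the levels were 5.08, 6.02 and 5.23 in the negative arrays and 5.14 in the positive one. There the positive array lay within the negative range, with a difference of -0.30 and an SE of 0.46. The averaged probe sets of Itgb3 differed by -0.64. The values of the 2 chains therefore lay on opposite sides of their negative means, with neither difference past the test.

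The GPIb-IX-V complex is the platelet receptor for von Willebrand factor. Its chains are leucine-rich repeat proteins, of which GPIb-beta, GPIX and GPV are among the 10 genes. Gp1ba, which encodes the ligand-binding chain, had no probe set annotated to it alone and was not analysed here. Gp9, needed for surface assembly of the complex, had log2 levels of 8.20, 8.23 and 8.33 in the negative arrays and 8.64 in the array labelled positive. The positive array lay 0.39 above the negative mean of 8.25 ± 0.07 (SD, n = 3), outside a narrow range. The SE of that difference was 0.19, because limma moved the small negative SD toward that of all genes. Over the alternatives run on Gp9 its difference was 0.34 to 0.43. Gp1bb, the beta chain linked to GPIb-alpha, had levels of 6.67, 6.62 and 6.44 in the negative arrays and 6.75 in the positive one in its brighter probe set. The gap to the nearest negative array was small and the difference was 0.17 with an SE of 0.21, or 0.10 without negative replicate 3 and 0.28 with both probe sets averaged. In the second Gp1bb probe set the levels were 6.85, 6.28 and 6.12 against 6.81, and the positive array lay within the negative range. The difference there was 0.40 with an SE of 0.37. A further probe set annotated to both Septin5 and Gp1bb, which lie next to each other, was set aside because its signal cannot be given to 1 gene. Gp5, the chain that thrombin cleaves, had levels of 4.85, 7.10 and 5.27 in the negative arrays and 6.55 in the positive one. Replicate 2 and the positive array were high and replicates 1 and 3 low. The negative mean was 5.74 ± 1.19 (SD, n = 3), and the difference of 0.81 had an SE of 1.00. It was 1.49 without negative replicate 2, 0.37 without replicate 1 and 0.49 with an offset before log2. Gp5 therefore split the negative arrays in another way than Pf4 did.

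**Figure D2:**
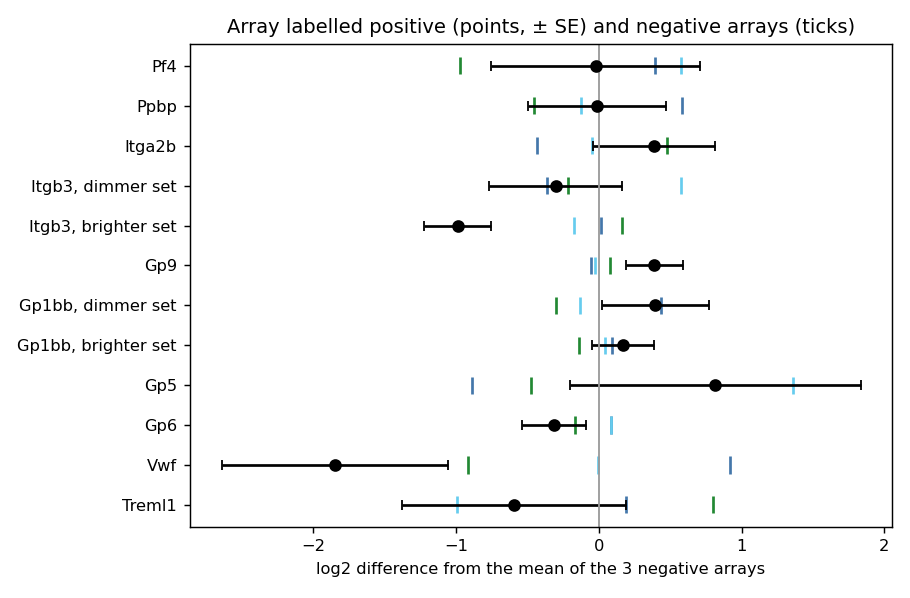
Log2 difference of the array labelled positive from the mean of the 3 negative arrays (black points, bars ± SE from limma fitted to all probe sets) for the 12 probe sets, with the negative arrays themselves as coloured ticks. The brighter Itgb3 probe set at -0.99 and Vwf at -1.85 lie left of all negative arrays, while the points of Pf4 and Ppbp lie near 0 inside a wide negative spread.

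Gp6, the collagen receptor that signals with the Fc receptor gamma chain, had log2 levels of 4.11, 4.11 and 3.86 in the negative arrays and 3.71 in the array labelled positive. The positive array was lowest by a small gap, with a difference of -0.31 and an SE of 0.22, or -0.10 with an offset before log2. This was the dimmest of the 12 probe sets, with a mean level at or above that of only 15.8% of probe sets. Treml1, a receptor of platelet alpha granules (TLT-1) that appears on activated platelets, had levels of 6.69, 5.51 and 7.30 in the negative arrays and 5.91 in the positive one. Replicate 3 was high, replicate 2 was low and the positive array lay between them. The difference of -0.59 had an SE of 0.77, around a negative mean of 6.50 ± 0.91 (SD, n = 3), and was -1.08 without negative replicate 2 and -0.19 without replicate 3.

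Vwf, the large adhesive protein that ties platelets to collagen and carries factor VIII, differed most of the 10 genes. Its log2 level was 7.98, 7.05 and 6.14 in negative replicates 1, 2 and 3 and 5.21 in the array labelled positive. The positive array was the lowest by a gap of about the size of the gaps between neighbouring negative values. The difference was -1.85 with an SE of 0.78, a linear ratio of 0.278, around a negative mean of 7.06 ± 0.92 (SD, n = 3). Over the alternatives run on Vwf its difference lay between -2.31 and -1.29. Endothelial markers were mostly lower in that array as well, with 0 past limma. At an unadjusted p under 0.05 were Esam, 1.17 lower, and Tek, 1.05 higher. Of 14 measured, 9 lay below the negative range in the positive array and 2 above it, against 23.0% and 23.6% of all genes. The summed intensity of the 14 had log2 values of 12.92, 12.85, 12.32 and 12.08 in negative replicates 1, 2, 3 and the positive array. Cdh5, the cadherin of endothelial junctions, had levels of 9.71, 9.45 and 6.16 against 4.83. Tek, the angiopoietin receptor, was highest in the positive array, at 7.36 against 6.19, 6.04 and 6.72. No endothelial marker had a mean level below the median of all probe sets, and the part of endothelial RNA in the Vwf difference was not tested. In bulk RNA, fewer cells of a type and less RNA per cell cannot be told apart. Cd9, a tetraspanin of platelets and stem cells whose gene lies next to Vwf on chromosome 6, had levels of 7.90, 7.61 and 8.95 in the negative arrays and 9.07 in the positive one, with a difference of 0.91 on the higher side.

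The 10 genes varied widely between arrays. The range over the 4 arrays was at least 1 log2 unit in 6 of the 10 genes (Pf4, Ppbp, Itgb3, Gp5, Vwf and Treml1), against 24.8% of all genes. Among genes brighter than the median probe set 30.6% reached it, and so did 4 of 7 members. Among the others it was 16.0% of genes and 2 of 3 members. The median range was 1.09 log2 units for the members and 0.54 over all genes. Such a spread was not particular to the members. The 12 measured LSK and stem cell markers had a median range of 1.06, and 7 of them reached 1 log2 unit. Of the endothelial markers 10 of 14 reached it, but only 4 of 14 erythroid markers. Vwf had a range of 2.77, at or above that of 97.9% of genes, and Gp5 had 2.25, at or above that of 95.8%. At the other end, Gp1bb had a range of 0.31 and Gp6 of 0.40. The arrays took turns at the extremes. Negative replicates 1, 2 and 3 and the positive array held the highest value of 3, 2, 3 and 2 members. They held the lowest value of 3, 1, 3 and 3 members. Over all genes, in the same order, they held the highest value of 21%, 26.8%, 28.5% and 23.6%. Their shares of the lowest values over all genes were 31.7%, 25.9%, 19.5% and 23%.

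**Figure D3:**
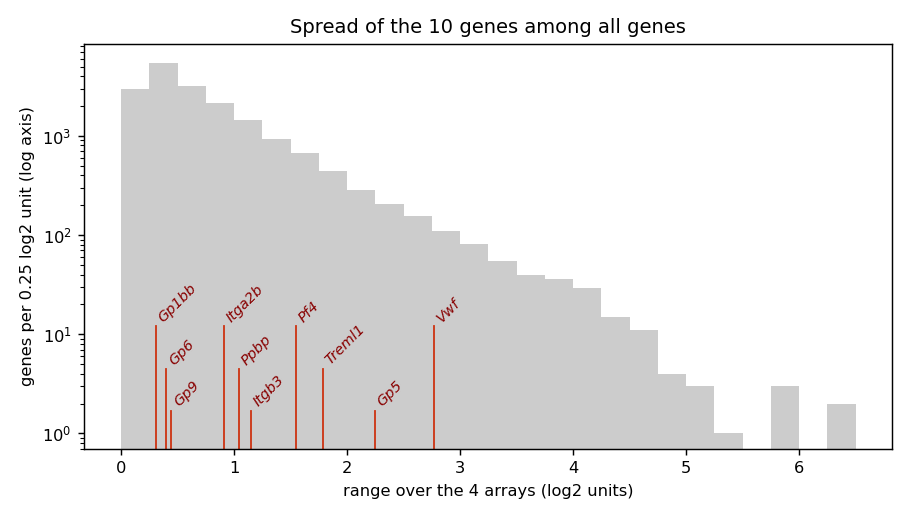
Number of genes (log axis) by the range of their log2 level over the 4 arrays, in bins of 0.25 log2 units, with red lines at the 10 platelet and megakaryocyte genes. Vwf at 2.77 and Gp5 at 2.25 lie in the right tail, and Gp1bb at 0.31 lies in the bulk of genes.

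Pairs of arrays did not order the members as they ordered all genes. Over all genes the closest arrays were negative replicate 3 and the one labelled positive, with 6.43% of genes at least 1 log2 unit apart. Among the members 3 of 10 were that far apart in this pair, namely Itgb3, Gp5 and Treml1. Between negative replicates 1 and 2 it was 2 of 10, Gp5 and Treml1, against 8.79% of all genes. Between negative replicate 2 and the positive array it was 1 of 10, Vwf, against 11.1% of all genes. With 10 members these counts are descriptions of the arrays, and no test was made of them.

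None of the factors listed for the megakaryocyte programme passed the test. Of 24 such genes, 21 had a probe set of their own and 0 passed limma in either direction, with 0 at an unadjusted p under 0.05. In 4 the array labelled positive lay above the negative range and in 1 below it. Over all genes these shares were 23.6% and 23.0%. The median difference was 0.15 log2 units, against -0.001 over all genes. Gata1, shared with the erythroid lineage, was at 7.78, 7.87 and 8.31 in the negative arrays and 8.32 in the positive one. Fli1, the ETS factor of megakaryocytes, was at 10.06, 9.92 and 10.01 against 9.89. Those with the largest differences were Ets1 (-1.25), an ETS factor of lymphoid and endothelial cells, Mafg (0.74), the small partner of the NF-E2 complex, Tal1 (0.53), a partner of GATA factors, and Mrtfa (-0.44), a cofactor of Srf. Ets1 had levels of 10.70, 10.55 and 8.29 in the negative arrays and 8.60 in the positive one, so the positive array lay within the negative range. Mecom, a stem cell factor also of the megakaryocyte lineage, ranged by 1.44, with its low value of 8.37 in negative replicate 3, the same array as for Pf4.

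None of the other platelet receptors and signalling genes passed the test. Of 38 listed, 30 were measured and 0 passed limma (Itga2 and Esam, both lower, had an unadjusted p under 0.05). The 38 are names, which include Slamf5 and G6b, older names of the also listed Cd84 and Mpig6b. In 13 of the 30 the array labelled positive lay below the negative range and in 6 above it. Over all genes these shares were 23.0% and 23.6%. The median difference was -0.22, against -0.001 over all genes. Both ADP receptors lay outside the range, in opposite directions. They were among the 4 genes of this list with a mean level below the median of all probe sets, which limits what their values can show. P2ry12, which couples to Gi, was at 6.38, 7.62 and 5.79 in the negative arrays and 4.74 in the positive one. P2ry1, which couples to Gq, was at 4.49, 5.86 and 6.30 against 7.25. Clec1b, the podoplanin receptor CLEC-2, had the widest range of the list, 3.94, with 9.46, 8.40 and 5.52 in the negative arrays and 6.37 in the positive one. Pecam1, shared with endothelial cells and held by both lists, was at 10.03, 9.27 and 7.93 against 7.76.

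Granule genes included the largest difference among the 4 related lists, that of F13a1. Of 31 listed, 29 were measured and 0 passed limma (3 at an unadjusted p under 0.05), with 5 above the negative range, 9 below it and a median difference of 0.03. Over all genes 23.6% lay above that range and 23.0% below it. F13a1, the clotting factor XIII subunit of platelets and monocytes, was at 7.47, 8.39 and 10.92 in the negative arrays and 11.02 in the positive one. Granulocyte markers had the same pair of arrays high, with log2 summed intensities of 15.49, 15.57, 16.35 and 16.37 in negative replicates 1, 2, 3 and the positive array, and their part in F13a1 was not tested. Angpt1, a ligand of Tek, was at 7.29, 8.21 and 9.13 against 9.95. Sparc, a matrix protein of platelets and stromal cells, was at 9.72, 9.24 and 7.11 against 6.94. Clu, a secreted chaperone also high in platelet-biased stem cells, was at 8.55, 9.07 and 8.43 against 7.27, below the negative range. Thbs1, thrombospondin, was within the range, at 5.92, 6.30 and 8.72 against 7.70.

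Cytoskeletal genes of platelets had the lowest share of wide ranges among the 4 related lists. All 20 were measured and 0 passed limma (0 at an unadjusted p under 0.05), with 6 above the negative range, 2 below it and a median difference of -0.01. Over all genes 23.6% lay above the negative range and 23.0% below it. The range over the 4 arrays reached 1 log2 unit in 1 of 20, against 24.8% of all genes. It did so in 5 of 21 factors, 14 of 30 receptor and signalling genes and 13 of 29 granule genes. The 1 cytoskeletal gene was Tubb1, the beta tubulin of the platelet marginal band. Tubb1 was at 3.28, 3.44 and 4.98 in the negative arrays and 3.74 in the positive one. Plek, a protein kinase C substrate of platelets, differed by 0.55, Tuba8 by 0.47, Tagln2 by 0.36 and Cap1, which binds actin monomers, by -0.51.

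Sums of other cell markers are given beside those of the members. Over all genes, the array labelled positive lay above the negative range in 23.6% and below it in 23.0%. Beside macrophages, B and T cell markers had log2 summed intensities of 14.50, 14.50, 12.19 and 12.19 in negative replicates 1, 2, 3 and the positive array, and 7 of 11 lay below the negative range. Mast cell and basophil markers stood at 13.84, 13.88, 11.10 and 10.93, with 4 of 11 below the range and 2 above it. Their median levels were 5.91, 6.31, 6.22 and 5.97, so that sum followed its brightest genes and not the list as a whole. Erythroid markers, of the lineage closest to megakaryocytes, stood at 15.07, 15.05, 15.33 and 15.36, with 6 of 14 above the range and 0 below it. Hepatoblast markers stood at 11.43, 10.99, 11.68 and 11.79, with 3 of 10 above it. The median levels of these 10 were 8.211, 7.44, 7.499 and 8.055, highest in negative replicate 1, so sum and median ordered the arrays differently. These 10 include Trh, which a match of synonyms put in place of the listed Trf and which is not a hepatoblast marker. Trh was dim, at 4.11, 4.04, 4.23 and 4.06, and within the range. The summed intensity of the 10 platelet and megakaryocyte genes had log2 values of 11.52, 11.58, 11.09 and 11.24 in the same order, a sum led by Pf4. Macrophage, B and T cell, and mast cell sums were low in the array labelled positive, where Pf4 was at 10.05, and in negative replicate 3, where it was at 9.10, and their part in the Pf4 levels was not tested.

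**Figure D4:**
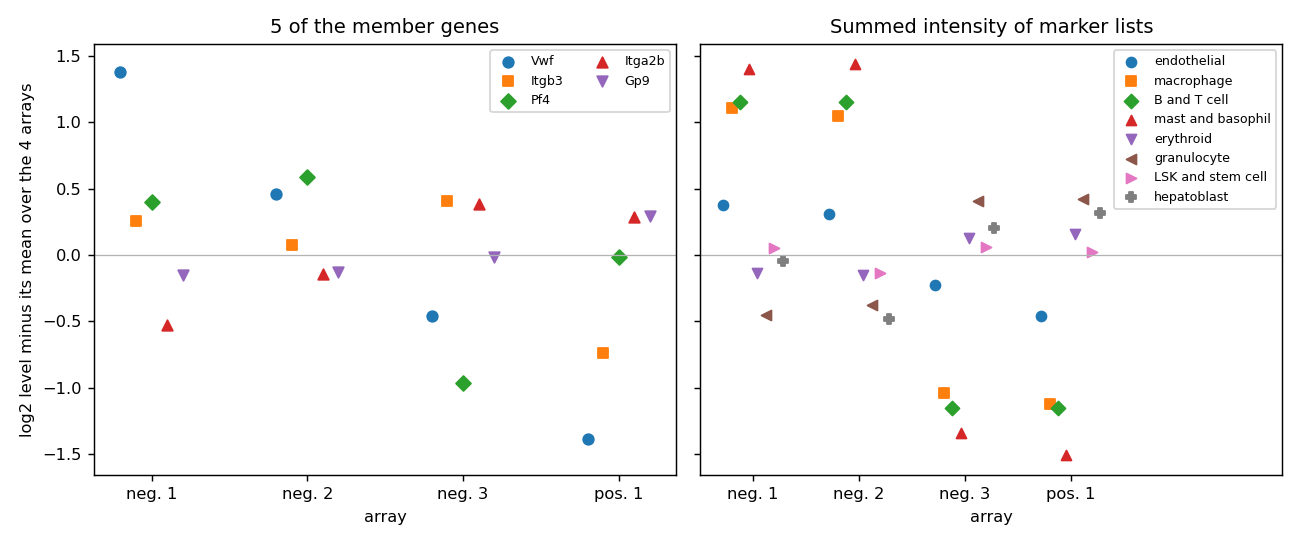
Log2 level minus its mean over the 4 arrays for 5 of the genes (left) and for the log2 summed intensity of 8 marker lists of other cell types (right), in negative replicates 1 to 3 and the array labelled positive. Macrophage, B and T cell, and mast cell sums are high in negative replicates 1 and 2 and low in the other arrays, whereas Itgb3 has its lowest value in the positive array and Pf4 in negative replicate 3.

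The genes with profiles nearest to Pf4 and Itga2b over the 4 arrays were found by the Euclidean distance between log2 levels centred on each gene's mean. For Pf4 they were Nfkbiz (distance 0.09), Fbxl12 (0.13), Focad (0.14), Ap3m2 (0.15) and Paqr4 (0.16), where the median gene was 1.31 away. Fbxl12, an F-box protein of a ubiquitin ligase, was at 8.70, 8.79 and 7.16 in the negative arrays and 8.24 in the positive one. For Itga2b they were Zc3h6 (0.04), Nipa2 (0.04), Mpc1 (0.05), Ptpmt1 (0.07) and Pradc1 (0.07), where the median gene was 0.80 away. With 4 arrays many genes share a profile, and neither set held another of the 10 members.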

How the data were processed

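RNA from LSK cells of 4 samples was amplified from 5 ng and labelled with biotin, per the labels' protocols. The authors deposited probe set intensities on a linear scale, made with RMA per the submitters' processing notes (software and version: not given in the sources used here). These deposited intensities, from 4.27 to 27451.5, were turned into log2 values with no offset. Of 45101 probe sets, 64 controls were left out, 34945 carried 1 gene symbol, 932 several and 9160 none, in an older platform annotation updated by gene ID (34741 matched, GRCm38.p6). Each gene was taken by the probe set with the highest mean. Labelled groups were compared in limma 3.58.1 (R 4.3.3; lmFit, eBayes, two-sided, adjusted p threshold 0.05) with 2 residual degrees of freedom, all from the negative arrays. The lone positive array is assumed to vary like them. The fit was tested on simulated data. RMA equalizes the arrays, which hides any change in the total RNA of a cell.

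The members and lists were chosen with earlier results of these data known. Named genes were Hes1, the 10 members, the 4 genes per related list with the largest difference and the 2 with the largest range, and the 5 nearest genes of Pf4 and Itga2b. Gata1, Fli1, Cd9, Gp1ba, Kit, Ly6a, Cdh5, Tek, Itga2, Esam and Trh were named outside this rule, with values known.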

Additional observations from a re-analysis of the deposited data

How the results depend on the processing

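limma called 0 genes in every alternative run, with 385 to 1479 genes at an unadjusted p under 0.05 among the gene-level fits and 2032 over all probe sets. The count of members outside the negative range was 5 of 10 as deposited, against 46.6% of all genes. It was 4 of 7 after dim probe sets (mean at or below the median) were dropped, which removed Ppbp, Gp5 and Gp6. Without 1 negative array it was 6 to 7 of 10, since fewer arrays span a narrower range. The shares of all genes under these alternatives are not given here, so these counts are not a result about the members. The median member difference was -0.22 to 0.17 without 1 negative array. The number of genes at least 1 log2 unit outside the negative range, 256, became 156 without those dim probe sets, 168 with averaged probe sets, 130 with an offset of 32 before log2, and 417 to 916 without 1 negative array. Of 89 member differences under alternatives, 36 equalled the reported value to within 0.001, most of them because the same probe set was used. Of the 53 that moved, 49 kept their sign. Those that turned were Pf4, at 0.17 without replicate 1 and 0.27 without replicate 2, and Ppbp, at 0.28 without replicate 1 and 0.014 under cyclic loess. Without 1 negative array Pf4 lay between -0.51 and 0.27 and Ppbp between -0.24 and 0.28. The background correction could not be varied, since scanner files were not used here. No paired analysis was possible because the groups share only replicate number 1. The dim probe sets of Ppbp, Gp5 and Gp6 limit what their values can show.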
